A study of Homo sapiens with 8 samples.

Results

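Transcripts of HEK293T cells in which KDM6A had been targeted (sgKDM6A) were compared with those of the wild-type line (WT), with 2 libraries in each group. These were 4 of the 8 libraries of the series, chosen by their labels. The other 4 were 2 libraries each of sgKDM5C and sgKMT2B knockouts of the same line, which entered the fit and served as a second reference. HEK293T is a human embryonic kidney line that carries adenoviral genes and the SV40 large T antigen. All groups were grown in DMEM with serum, and no treatment, dose or time is given. The sources used here do not give whether each knockout was 1 clone or a pool, nor where the guide cut. The labels name no separate cultures, so p-values measure only the spread between these libraries, which may be technical. Of 60617 genes in the count table, 17527 passed the filter on low counts and were tested.

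KDM6A, also called UTX, is an X-linked enzyme that removes methyl groups from lysine 27 of histone H3 (H3K27), the mark that Polycomb repressive complex 2 (PRC2) places on silent developmental genes. It is also a subunit of the complexes built on KMT2C and KMT2D (MLL3 and MLL4), which methylate lysine 4 of histone H3 at enhancers. It is mutated in Kabuki syndrome and in several cancers. The series holds no chromatin measurements that were analysed here, so the values below are levels of transcripts only, and in bulk RNA fewer cells with a transcript and less of it per cell cannot be told apart.

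The total counts were 25099182 and 15868353 in the WT libraries and 25331401 and 27591724 in the sgKDM6A libraries. Before TMM factors, 1 count was thus worth 0.0362 to 0.063 CPM. Levels in CPM are counts scaled to the size of each library with TMM factors. Of 19 kidney markers, 11 to 14 had a count in each of the 8 libraries, and CDH16 and UMOD were among those with 0 counts in all of them. Their summed level was 198 and 204 CPM in WT and 188 and 178 CPM in sgKDM6A. The 16 neural markers summed to 573 and 581 CPM in WT and to 399 and 342 CPM in sgKDM6A, so these groups did not overlap. Their sum was also low in sgKMT2B, at 344 and 349 CPM, and was 746 and 665 CPM in sgKDM5C. Markers of blood summed to 4.33 to 9.14 CPM and those of endothelium to 0.195 to 1.89 CPM over the 8 libraries.

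KDM6A (ENSG00000147050) lies on chromosome X, 44873177 to 45112602, on GRCh38. Its level was 54.2 and 61.2 CPM in the WT libraries and 10.3 and 11.5 CPM in the sgKDM6A libraries. It was at 53.7 and 49.98 CPM in sgKDM5C and 65.8 and 56.8 CPM in sgKMT2B, so sgKDM6A alone lay low (against WT, log2 change -2.39 with SE 0.13, adjusted p = 9.38e-08). The counts cover the whole gene, and transcripts with a disrupted reading frame are counted with the others. KDM6B, the paralog that also demethylates H3K27, fell too, from 84.5 and 86.8 to 38.8 and 47.7 CPM (log2 change -0.98 with SE 0.16, adjusted p = 0.00068). KDM6B was lower than in WT in sgKDM5C as well, at 47.6 and 65.7 CPM, and at 70.1 and 88.5 CPM in sgKMT2B. It lies in a stretch of chromosome 17 in which many genes fell, described below.

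In the gene lists below, a call that held when each of the 4 libraries of the comparison was left out in turn is named stable. The counts of each list are to be read beside the shares of all genes tested, 12.6% called higher and 14.6% called lower. Among 10 tested subunits of the MLL3 and MLL4 complexes, 2 rose and KDM6A was the one that fell (2 stable rises, 1 stable fall, median 0.07). WDR5, the scaffold shared by all such methyltransferase complexes, went from 145 and 128 CPM in WT to 237 and 227 CPM (log2 change 0.76 with SE 0.10, adjusted p = 0.000165), and KMT2C, the MLL3 enzyme itself, from 39 and 37.8 to 52.9 and 56.3 CPM (log2 change 0.51 with SE 0.12, adjusted p = 0.00697). In both cases the groups did not overlap. WDR5 lies on chromosome 9, on which 31.2% of tested genes rose. Over the complexes 30% of tested subunits were called, beside 27.2% of all genes tested. Of 14 tested genes of H3K27 methylation, RBBP7, a histone-binding subunit of PRC2, and KDM6B fell and 0 rose (0 stable rises, 2 stable falls, median -0.04). RBBP7 was at 396 and 432 CPM in WT and 220.1 and 235 CPM in sgKDM6A (log2 change -0.86 with SE 0.09, adjusted p = 1.72e-05). RBBP7 lies on the X chromosome, on the same arm as KDM6A. Of the tested genes of H3K27 methylation 14.3% were called. Among 24 enhancer coactivators 4 rose and 3 fell (1 stable rise, 2 stable falls, median 0.08). The share of coactivators called, 29.2%, was near the 27.2% of all genes tested. BRD2, a reader of acetylated histones, fell by 0.98 on the log2 scale (SE 0.11, adjusted p = 6.24e-05), while ARID2, a subunit of a SWI/SNF remodeller, rose (log2 change 0.63 ± 0.14, SE). BRD2 was also low in sgKDM5C and sgKMT2B, at 64.1 and 60.4 CPM and 59.9 and 64.9 CPM beside 151 and 182 CPM in WT and 78.3 and 90.2 CPM in sgKDM6A. The comparisons with WT share the WT libraries, so a level that is low in every knockout is not an independent repeat.

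Across all genes tested, 4759 differed between sgKDM6A and WT at an adjusted p under 0.05 (27.2%), 2201 upward (12.6%) and 2558 downward (14.6%). The change was at least 2-fold for 577 of the risen genes (3.29%) and for 825 of the fallen ones (4.71%), and under 1.5-fold for 1857 of the called genes. The median log2 change of all genes was 0.01. In 4751 of the called genes the sgKDM6A libraries lay both above or both below the WT libraries, which was so upward for 31.7% and downward for 31.7% of all genes tested. Where groups are said not to overlap in a called gene, this therefore adds no support beyond the call. Leaving out sgKDM6A replicate 1 gave 2495 calls, leaving out sgKDM6A replicate 2 gave 3327, leaving out WT replicate 2 gave 3148 and leaving out WT replicate 1 gave 4711. Of the risen genes 803, and of the fallen genes 1127, kept their call and direction in each of these 4 fits, so they were stable in the sense used here. Each gene described with values is stable unless said otherwise.

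**Figure D1:**
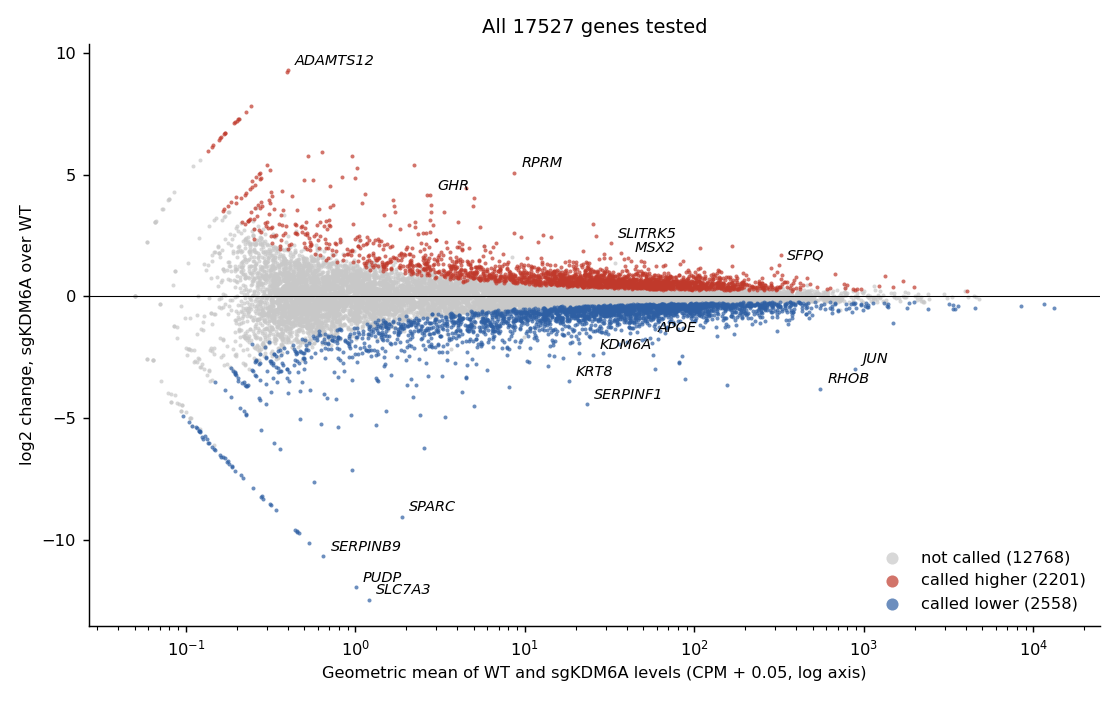
Log2 change from WT to sgKDM6A (vertical axis) against the geometric mean level in CPM plus 0.05 (horizontal log axis) for the 17527 genes tested. The 2201 genes called higher are red, the 2558 called lower are blue, and labelled genes are described in the text. The diagonal edges are genes with 0 counts in 1 group.

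Some transcripts were present in one group and had 0 counts in the other. There were 45 called genes with 0 counts in both sgKDM6A libraries and 18 with 0 counts in both WT libraries. SLC7A3, a transporter of cationic amino acids (ENSG00000165349, chromosome X, 70925582 to 70931125), had 746 and 407 counts in the WT libraries and 0 in each sgKDM6A library. It had 879 and 778 counts in sgKDM5C and 534 and 591 in sgKMT2B, so it was at 0 in sgKDM6A alone. With 3 counts taken as the floor of both libraries together, it was at least 516-fold lower than in WT. SERPINB9, an inhibitor of granzyme B, had 208 and 125 counts in WT and 0 in both sgKDM6A libraries, at least 149-fold lower. PUDP, a pseudouridine phosphatase, and STS, the steroid sulfatase, lie close together on the X chromosome. PUDP had 394 and 373 counts in WT and STS had 99 and 62, and both had 0 in each sgKDM6A library (at least 344-fold and 72.1-fold lower). In sgKDM5C PUDP had 468 and 469 counts and STS 149 and 137, and in sgKMT2B PUDP had 422 and 503 and STS 150 and 136, so both genes were silent in sgKDM6A alone.

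SPARC, a secreted glycoprotein that binds collagen, was close to absent: it had 686 and 572 counts in the WT libraries and 2 and 1 in the sgKDM6A libraries, a ratio of 564-fold (95% counting interval 192 to 2736). SPARC was at 4.08 and 4.09 CPM in sgKDM5C and at 91.5 and 102 CPM in sgKMT2B, so sgKDM6A lay below all other libraries. Further down in level, STRA6, the cell-surface receptor for retinol-binding protein, had 43 and 43 counts in WT and 0 in sgKDM6A (at least 38.5-fold lower). It was named after its values were seen, as were ZNF804A and ERBB4 below.

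In the other direction, ADAMTS12, a secreted metalloprotease, had 0 counts in both WT libraries and 84 and 84 in sgKDM6A, at least 41.7-fold higher. It had 0 and 0 counts in sgKDM5C and 3 and 1 in sgKMT2B. ZNF804A, a zinc finger gene, had 0 counts in WT and 90 and 72 in sgKDM6A (at least 40.2-fold higher), and 64 and 90 in sgKMT2B. ERBB4, a receptor for neuregulins, had 0 in WT and 21 and 31 in sgKDM6A (at least 12.9-fold higher).

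Promoters of 6 genes at or near 0 counts, or at low levels, in one of the groups are printed. CpG is the dinucleotide at which DNA is methylated. The sequences show how widely its number varied within the genes lost and within the genes gained or raised. Each run is the 250 bases before the RefSeq start on GRCh38.p14, 5′ to 3′ on the strand of the gene, with CG in capitals. PUDP, SERPINB9 and SPARC are genes lost in sgKDM6A. ADAMTS12 is a gene gained, and RPRM and GHR rose from low levels in WT.
PUDP (chrX:7148154-7148403, minus strand): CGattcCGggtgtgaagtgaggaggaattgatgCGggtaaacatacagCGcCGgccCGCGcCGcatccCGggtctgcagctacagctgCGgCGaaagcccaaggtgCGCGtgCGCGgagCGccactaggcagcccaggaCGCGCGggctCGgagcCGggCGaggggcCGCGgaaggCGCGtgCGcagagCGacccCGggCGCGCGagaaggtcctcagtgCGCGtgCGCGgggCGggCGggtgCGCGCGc
SERPINB9 (chr6:2903310-2903559, minus strand): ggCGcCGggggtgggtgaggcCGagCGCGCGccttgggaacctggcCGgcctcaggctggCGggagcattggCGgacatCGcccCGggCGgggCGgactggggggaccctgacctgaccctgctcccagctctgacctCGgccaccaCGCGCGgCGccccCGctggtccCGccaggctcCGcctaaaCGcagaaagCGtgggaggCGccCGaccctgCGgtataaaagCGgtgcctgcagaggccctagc
SPARC (chr5:151686916-151687165, minus strand): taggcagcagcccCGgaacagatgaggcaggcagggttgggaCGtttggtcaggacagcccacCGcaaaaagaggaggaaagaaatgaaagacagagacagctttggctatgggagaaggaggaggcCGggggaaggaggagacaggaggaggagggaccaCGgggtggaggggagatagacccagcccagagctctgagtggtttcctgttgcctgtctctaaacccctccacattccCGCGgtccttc
RPRM (chr2:153478763-153479012, minus strand): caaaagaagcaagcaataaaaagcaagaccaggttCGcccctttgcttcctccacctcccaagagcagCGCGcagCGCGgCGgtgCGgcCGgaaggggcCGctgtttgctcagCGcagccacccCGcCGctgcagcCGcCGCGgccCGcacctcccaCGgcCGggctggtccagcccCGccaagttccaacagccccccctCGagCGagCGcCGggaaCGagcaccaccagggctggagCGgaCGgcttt
ADAMTS12 (chr5:33891991-33892240, minus strand): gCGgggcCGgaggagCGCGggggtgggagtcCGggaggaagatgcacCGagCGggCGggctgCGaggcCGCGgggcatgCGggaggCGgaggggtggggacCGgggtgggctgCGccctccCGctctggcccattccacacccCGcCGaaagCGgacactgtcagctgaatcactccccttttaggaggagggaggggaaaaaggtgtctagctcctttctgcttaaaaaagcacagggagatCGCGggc
GHR (chr5:42423189-42423438, plus strand): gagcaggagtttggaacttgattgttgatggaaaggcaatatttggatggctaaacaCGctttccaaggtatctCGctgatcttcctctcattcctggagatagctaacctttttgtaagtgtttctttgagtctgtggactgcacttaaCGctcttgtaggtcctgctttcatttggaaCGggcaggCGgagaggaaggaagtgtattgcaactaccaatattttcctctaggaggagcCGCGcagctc
Counted over the window from 250 bases before to 50 after the start, CG occurred 45 times at PUDP, 35 at SERPINB9 and 11 at SPARC. It occurred 30 times at RPRM, 24 at ADAMTS12 and 10 at GHR. Both kinds of gene thus include promoters above and below the median of 26 over the 10991 protein-coding genes tested that had a window. A window was found for 82.6% of the protein-coding genes that rose and 77.3% of those that fell, and since the second share is under 80%, no comparison of CG or motif content between the sets is given. Of 7 motifs searched on both strands, the TATA motif TATAAA was in the window of SERPINB9 and in 5.45% of all those windows. The TEAD motif GGAATG was in the windows of SPARC, ADAMTS12 and GHR and in 10.5% of all, and the GC box CCGCCC in those of PUDP, SERPINB9 and ADAMTS12 and in 70.6% of all. The other 4, the AP-1 motif TGACTCA (2.81% of all), the E-box CACGTG (9.9%), the cAMP response element TGACGTCA (3.2%) and the GATA motif GATAAG (3.57%), were in none of the 6 windows. A match says only that these letters occur there.

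Several receptors and regulators rose from low to moderate levels. RPRM, which encodes the p53-induced cell cycle arrest protein Reprimo (ENSG00000177519, chromosome 2, 153477338 to 153478808), was at 1.03 and 1.95 CPM in WT and 53.5 and 43.1 CPM in sgKDM6A (log2 change 5.08 with SE 0.31, adjusted p = 2.01e-07). RPRM was at 4.22 and 3.33 CPM in sgKDM5C and 1.97 and 0.946 CPM in sgKMT2B, so both sgKDM6A libraries lay far above the other 6. GHR, the growth hormone receptor, went from 0.496 and 0.78 to 10.5 and 11.8 CPM (log2 change 4.16 with SE 0.33, adjusted p = 3.33e-06). The spread between libraries was small beside each of these changes.

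Other large increases were those of the Golgi enzyme GALNT14, which starts mucin-type glycans (log2 change 3.06 ± 0.29, SE), the chondroitin synthase CHSY3 (3.15 ± 0.43), the nicotinic receptor modulator LYPD1 (3.06 ± 0.41) and the orphan G protein-coupled receptor GPR37 (2.86 ± 0.40). The ETS factors ETV1 and ETV5, which act downstream of growth factor receptors, rose together. ETV5 was at 0.578 and 1.43 CPM in WT and 15.1 and 5.86 CPM in sgKDM6A (log2 change 3.46 with SE 0.58, adjusted p = 0.000906), and ETV1 at 0.909 and 1.1 and 10.2 and 5.15 CPM (log2 change 2.94 with SE 0.39, adjusted p = 0.000154). In both genes sgKDM6A replicate 1 was the higher of the pair and both lay above WT. SAMD9 rose by 3.48 ± 0.37 (SE), and was also at 5.17 and 9.61 CPM in sgKDM5C and 9.96 and 8.28 CPM in sgKMT2B beside 1.12 and 0.455 CPM in WT.

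Among the largest decreases, SERPINF1, which encodes the secreted anti-angiogenic factor PEDF, fell from 91.8 and 123 to 4.92 and 5.07 CPM (log2 change -4.42 with SE 0.16, adjusted p = 1.85e-09). BST2, the antiviral protein tetherin, fell from 7.06 and 10.3 to 0.555 and 0.429 CPM (log2 change -4.13 with SE 0.30, adjusted p = 1.21e-06), and IFITM1, which blocks viral entry, from 35.2 and 22.7 to 2.66 and 1.72 CPM (log2 change -3.74 with SE 0.25, adjusted p = 4.53e-07). KRT8, a keratin of simple epithelia, went from 59.9 and 61.3 CPM in WT to 5.15 and 5.61 CPM (log2 change -3.49 with SE 0.11, adjusted p = 1.1e-09). RAMP2, a partner of the calcitonin-like receptor, fell by 3.65 on the log2 scale (SE 0.24), and the Rab27 effector SYTL5 by 4.52 (SE 0.22). For all of these the sgKDM6A libraries lay below the other 6 libraries. IFITM1 lies at the tip of chromosome 11, where neighbouring genes fell too, as described below. PCYT1B, an enzyme of phosphatidylcholine synthesis, fell by 3.63 (SE 0.36), and FHAD1 by 3.93 (SE 0.21).

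**Figure D2:**
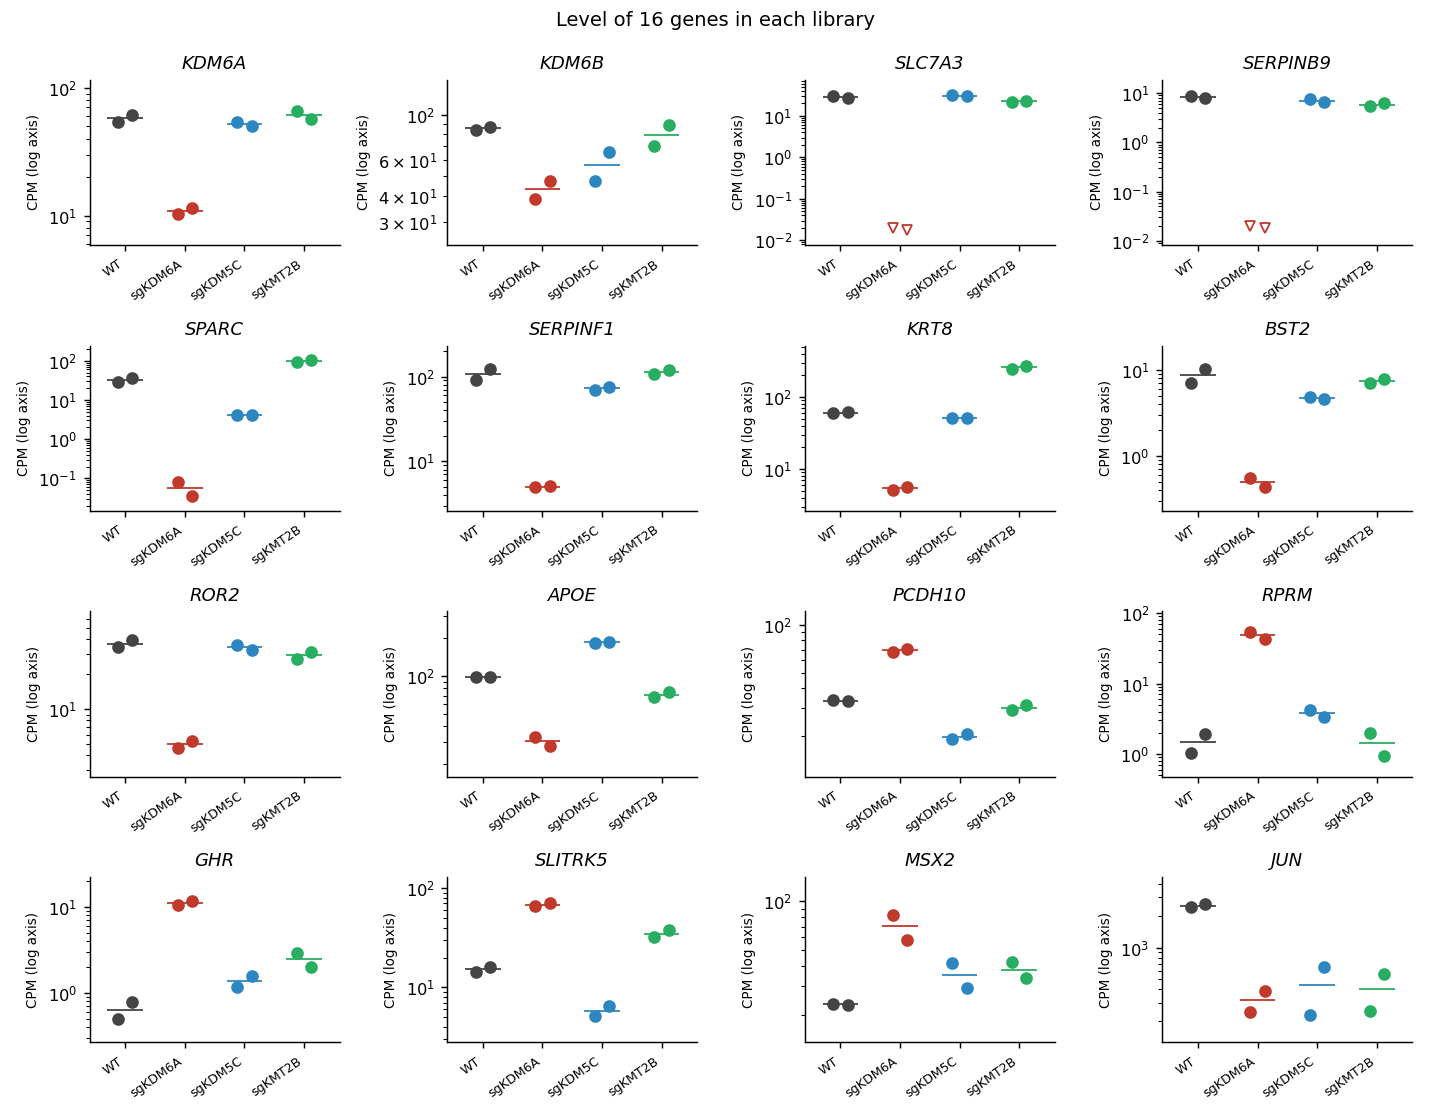
Level of 16 genes in CPM on log axes in the 2 libraries of each group (points) with the group mean (lines). Open triangles mark libraries with 0 counts, drawn at the level of 0.5 counts. KDM6A is lowest in sgKDM6A, SLC7A3 and SERPINB9 have 0 counts there, RPRM and GHR are highest there, and JUN is highest in WT.

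Among transcripts with at least 100 CPM in both groups, the RNA-binding protein SFPQ, which acts in splicing and DNA repair, was at 220.5 and 183 CPM in WT and 566 and 434 CPM in sgKDM6A (log2 change 1.31 with SE 0.19, adjusted p = 0.0003). SFPQ was at 474 and 302 CPM in sgKDM5C and 518 and 403 CPM in sgKMT2B, so WT was the group that lay low. Of the 10 largest increases at that level 4 set sgKDM6A apart from all 3 other groups in the joint test described below, namely SEC16A, described with its neighbours below, SLC27A4, a fatty acid transport protein (log2 change 1.26 ± 0.13, SE), ANKRD52, a regulatory subunit of protein phosphatase 6 (0.95 ± 0.10), and HSD17B10, a mitochondrial dehydrogenase (0.87 ± 0.10).

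JUN and RHOB, both induced early by growth signals and stress, were the abundant transcripts that fell most. JUN was at 2418 and 2568 CPM in WT and 243 and 388 CPM in sgKDM6A (log2 change -2.98 with SE 0.42, adjusted p = 0.000254), and at 227 and 654 CPM in sgKDM5C and 249.8 and 564 CPM in sgKMT2B. RHOB, a small GTPase, was at 1799 and 2311 CPM in WT and 99.3 and 196 CPM in sgKDM6A (log2 change -3.80 with SE 0.47, adjusted p = 8.55e-05), and at 134 and 389.9 CPM in sgKDM5C and 221 and 481 CPM in sgKMT2B. The paired libraries of JUN differed in ratio by more in each knockout than in WT. ATF3, a transcription factor of the stress response, fell from 398 and 707 to 41.8 and 45.5 CPM (log2 change -3.66 with SE 0.31, adjusted p = 5.33e-06), and was at 34.1 and 62.9 CPM in sgKDM5C and 85.7 and 139 CPM in sgKMT2B. For these 3 genes WT stood above every knockout. Fallen genes in which sgKDM6A lay below the other knockouts too were CDK16, a cyclin-dependent kinase (-1.40 ± 0.09), JUP, the junction protein plakoglobin (-1.22 ± 0.10), FBLN1, the matrix protein fibulin-1 (-1.19 ± 0.09), and ASS1, an enzyme of arginine synthesis (-1.10 ± 0.12, log2 change ± SE).

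To set changes of sgKDM6A aside from those that distinguish WT from every knockout, genes were required to differ in the same direction from WT, sgKDM5C and sgKMT2B, with the largest of the 3 p-values adjusted over all genes. By this test 573 genes set sgKDM6A apart (3.27%), 176 higher (1%) and 397 lower (2.27%). Of these, 59 and 165 differed by at least 2-fold from each of the 3 other groups. Without sgKDM6A replicate 1 the number was 309, and without sgKDM6A replicate 2 it was 309. For comparison, 3468 genes (19.8%) differed between sgKDM6A and sgKDM5C and 4356 (24.9%) between sgKDM6A and sgKMT2B. Among the 10 highest by the smallest of their 3 differences were B3GALT1, PLXDC2, RPRM, LYPD1, SLC16A7 and GALNT14. Among the 10 lowest were SLC7A3, PUDP, SERPINB9, ADM2, SPARC, SYTL5, SLC2A3, SERPINF1 and IFITM1. PLXDC2, a transmembrane protein with a plexin domain, was at 1.36 and 1.3 CPM in WT, 18.3 and 17.4 CPM in sgKDM6A, 1.38 and 1.06 CPM in sgKDM5C and 0.201 and 0.473 CPM in sgKMT2B (adjusted p of the joint test 2.26e-06). HSPA1B and VAMP7 also ranked among the 10 highest and SULT1A1 among the 10 lowest, but each has a near-identical copy, so their counts are uncertain. The call of HSPA1B against WT was kept in 1 of the 4 fits.

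The basement membrane is the sheet of laminins, type IV collagen, nidogens and perlecan on which epithelial cells rest, and 14 of 27 tested members fell and 1 rose (11 and 0 stable, median log2 change -0.54). HSPG2, which encodes perlecan, was at 109 and 108 CPM in WT and 26.4 and 31.4 CPM in sgKDM6A (log2 change -1.91 with SE 0.13, adjusted p = 8.05e-07), and COL18A1 at 175 and 156 and 73.3 and 86.5 CPM (log2 change -1.05 with SE 0.11, adjusted p = 2.03e-05). The groups did not overlap in either gene. COL18A1 lies on chromosome 21, on which 25.9% of tested genes fell and 1.04% rose. The laminin chains LAMA1 and LAMA5 fell by 1.31 (SE 0.18) and 0.75 (SE 0.10) on the log2 scale. Of the fallen members 6 set sgKDM6A apart from both other knockouts too.

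Proteoglycans carry the sugar chains that hold growth factors at the cell surface, and 9 of 19 fell while 1 rose (6 and 0 stable, median -0.49). SDC1, the epithelial syndecan, fell from 76.3 and 76 to 19 and 22.5 CPM (log2 change -1.87 with SE 0.12, adjusted p = 4.53e-07) and CSPG4, also called NG2, from 29.4 and 26.8 to 5.55 and 9.58 CPM (log2 change -1.89 with SE 0.22, adjusted p = 5.69e-05). Of 21 integrins, the receptors for matrix, 8 fell and 2 rose (2 stable rises, 4 stable falls, median -0.26). ITGB4, the hemidesmosome subunit that binds laminin, fell from 33.3 and 36 to 6.78 and 5.75 CPM (log2 change -2.47 with SE 0.15, adjusted p = 2.01e-07), and ITGA9 fell by 2.56 (SE 0.24). ITGA2, which pairs with ITGB1 to bind collagen, rose from 6.28 and 6.89 to 11.5 and 14.8 CPM (log2 change 1.01 with SE 0.18, adjusted p = 0.0014).

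ADAMTS proteases are secreted into the matrix, and ADAM proteases are bound to the membrane. Of the first kind 8 of 20 ADAMTS and ADAMTSL genes fell and 1 rose, and 1 of 10 ADAM genes fell and 2 rose (1 stable rise, 4 stable falls, median -0.19, both kinds together). ADAMTS7, which cuts cartilage matrix proteins, fell from 35.1 and 36.6 to 8.76 and 10.4 CPM (log2 change -1.90 with SE 0.16, adjusted p = 4.62e-06). Of 18 protease inhibitors 4 fell and 0 rose (0 stable rises, 4 stable falls, median -0.26), so 22.2% were called beside 27.2% of all genes, and TIMP3, an inhibitor of matrix proteases, fell by 1.28 (SE 0.14). Annexins and S100 proteins bind calcium and membranes, and 11 of 17 fell and 0 rose (5 stable, median -0.50). ANXA2 was at 209.8 and 231 CPM in WT and 160.3 and 151 CPM in sgKDM6A (log2 change -0.50 with SE 0.09, adjusted p = 0.00118), and S100A4, linked to cell motility, fell by 1.95 (SE 0.35). The 5 tested genes in a row from S100A10 to S100A16 on chromosome 1 all fell, but not all of these calls were stable. S100A16 had few counts, 11 and 5 in WT and 0 in both sgKDM6A libraries.

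The actin machinery of contraction was lower in 14 of 33 members and higher in 2 (11 and 0 stable, median -0.27). TPM2, a tropomyosin, fell from 10.9 and 11.1 to 2.89 and 2.5 CPM (log2 change -2.03 with SE 0.19, adjusted p = 9.78e-06), CNN3, a calponin, from 201 and 208 to 101 and 109 CPM (log2 change -0.96 with SE 0.09, adjusted p = 1.09e-05), and MRTFA, a coactivator of serum response factor that drives such genes, from 79.6 and 71.6 to 40.8 and 44.7 CPM (log2 change -0.82 with SE 0.11, adjusted p = 0.000207). The groups did not overlap in any of these 3 genes. Among 30 tight and gap junction genes 7 fell and 3 rose (0 stable rises, 3 stable falls, median -0.09). The share of them called was 33.3%, beside 27.2% of all genes tested. CLDN3, a claudin of tight junctions, had 14 and 11 counts in WT and 0 in sgKDM6A (at least 11.2-fold lower).

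**Figure D3:**
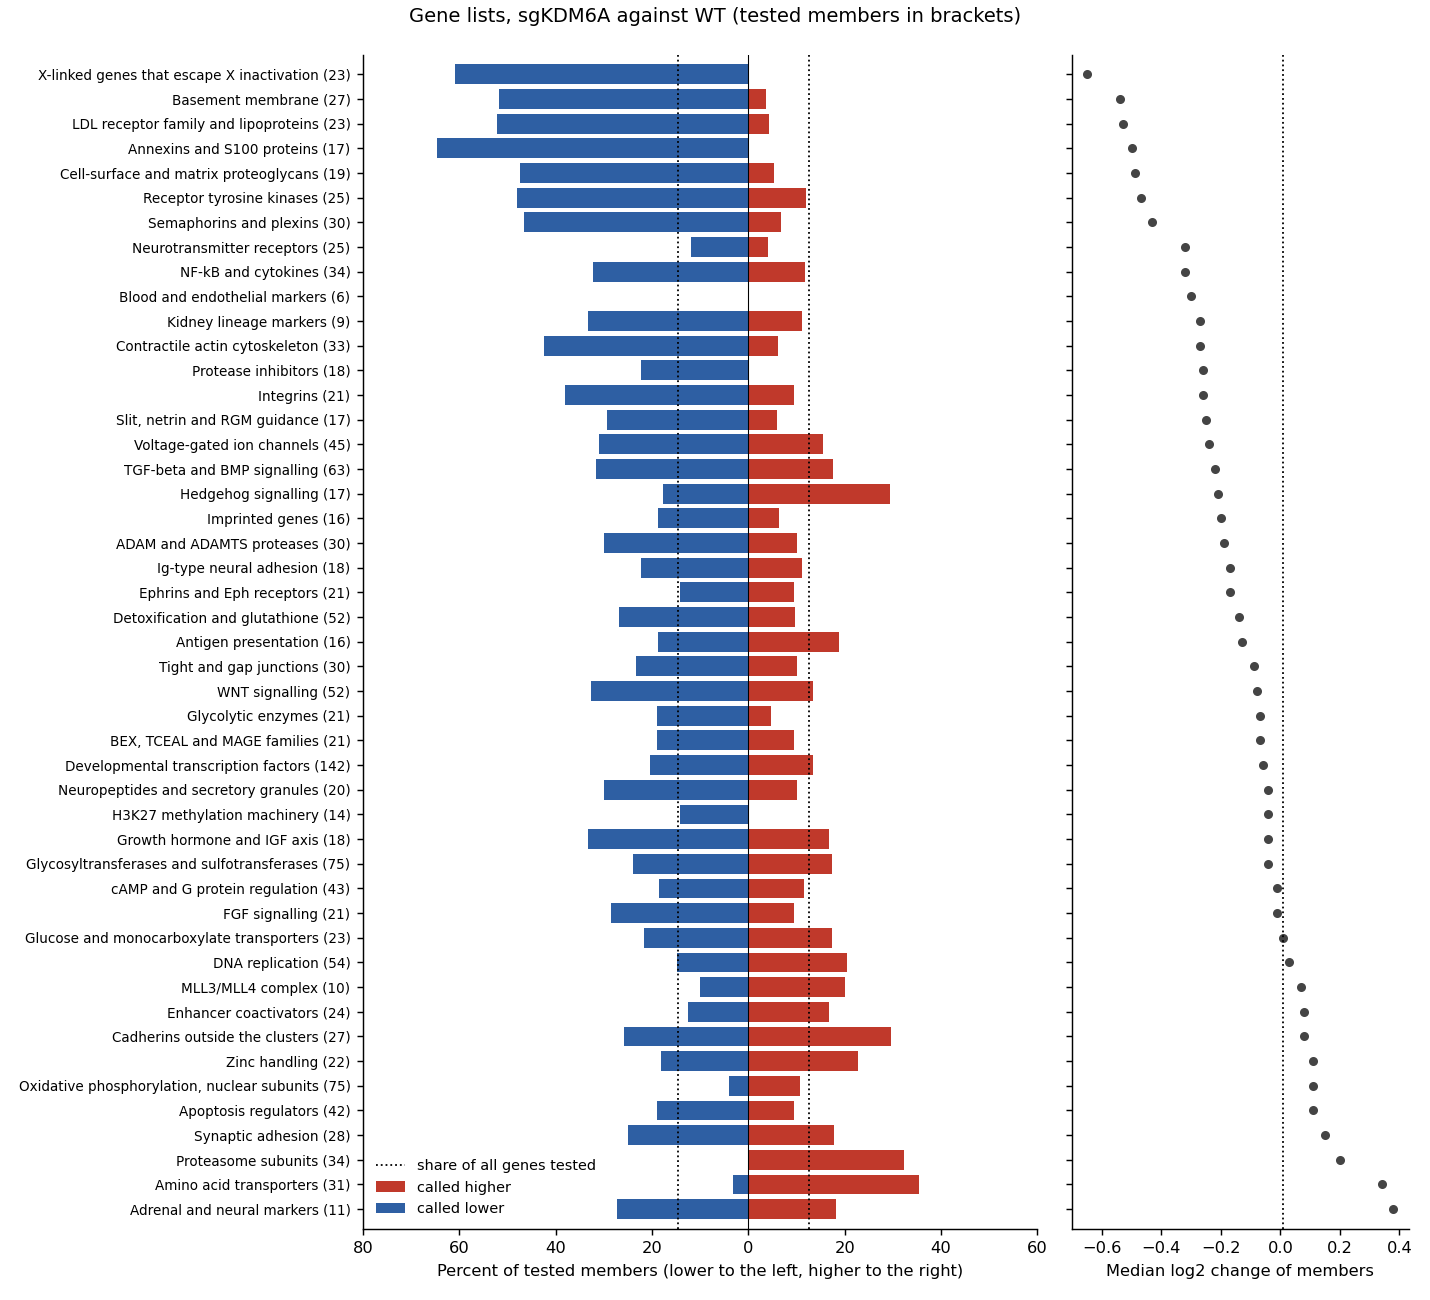
Left, percent of the tested members of each of the 47 gene lists called higher (red, to the right) or lower (blue, to the left) in sgKDM6A, with dotted lines at the shares of all genes tested (12.6% and 14.6%). Right, the median log2 change of the members. Lists are ordered by that median, from X-linked escape genes (-0.65) at the top to neural markers (0.38) at the bottom. The label of the last list also says adrenal, but its members are neural markers only.

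Axon guidance molecules steer growing neurites and migrating cells, and plexins and neuropilins are the receptors of semaphorins. Of 11 tested receptors 8 fell and 0 rose (median log2 change -0.71). Of 19 semaphorins 6 fell and 2 rose (median -0.29), and over both kinds 9 falls and 1 rise were stable. PLXNB2 was at 236 and 278 CPM in WT and 134 and 150.3 CPM in sgKDM6A (log2 change -0.85 with SE 0.11, adjusted p = 0.000138), and PLXND1 at 97.7 and 108 and 48.8 and 52.4 CPM (log2 change -1.02 with SE 0.10, adjusted p = 2.03e-05). PLXND1 and PLXNA1 (-0.71 ± 0.11, SE) lie in a stretch of chromosome 3 in which many genes fell. SEMA3F, a secreted repellent, fell by 1.29 (SE 0.18).

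Slits repel axons through ROBO receptors, and netrins attract them. Of 17 genes of the slit, netrin and RGM families 5 fell and 1 rose (0 stable rises, 3 stable falls, median -0.25). The share of them called was 35.3%, beside 27.2% of all genes tested. SLIT1 fell from 32.9 and 37.7 to 11.7 and 12.8 CPM (log2 change -1.52 with SE 0.15, adjusted p = 1.83e-05) and NTN1 from 70.1 and 83.1 to 40.6 and 45.2 CPM (log2 change -0.83 with SE 0.13, adjusted p = 0.000399). NTN1 lies in the stretch of chromosome 17 that holds KDM6B. SLIT2 was at 546 and 516 CPM in WT, 202 and 281 CPM in sgKDM6A, 255 and 337 CPM in sgKDM5C and 172 and 203 CPM in sgKMT2B, so it was lower than WT in every knockout. Ephrins signal to Eph receptors between touching cells: 2 of 13 receptors rose and 3 fell, and of the 8 ephrins 0 rose and 0 fell (2 stable rises, 3 stable falls, median -0.17, receptors and ligands together). Receptors and ligands together had 23.8% called, beside 27.2% of all genes tested. EPHA3 rose from 5.74 and 6.17 to 18 and 17.2 CPM (log2 change 1.56 with SE 0.17, adjusted p = 4.2e-05), and EPHB3 fell from 10.8 and 13.5 to 6.26 and 5.43 CPM (log2 change -1.05 with SE 0.22, adjusted p = 0.00323).

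Neural adhesion genes moved both ways. On the postsynaptic side of synaptic adhesion 5 of 18 genes rose and 3 fell, and on the presynaptic side 0 of 10 rose and 4 fell (4 stable rises, 4 stable falls, median 0.15, both sides together). SLITRK5, a leucine-rich synapse organiser, was at 14.3 and 16 CPM in WT and 66.1 and 70.5 CPM in sgKDM6A (log2 change 2.17 with SE 0.15, adjusted p = 5.11e-07). It was at 5.1 and 6.43 CPM in sgKDM5C and 32.2 and 37.5 CPM in sgKMT2B, below sgKDM6A in both. ADGRL3, a latrophilin, rose from 0.868 and 1.62 to 19.1 and 19.97 CPM (log2 change 4.03 with SE 0.27, adjusted p = 5.05e-07), and TENM1, a teneurin on the other side of the same contacts, fell from 13.2 and 11.2 to 0.555 and 0.286 CPM (log2 change -4.86 with SE 0.42, adjusted p = 6.03e-06). TENM1 was lower still in sgKMT2B, at 0.321 and 0.0788 CPM.

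Cadherins hold cells together through calcium-dependent contacts. Of 27 tested outside the protocadherin clusters 8 rose and 7 fell (4 stable rises, 5 stable falls, median 0.08). The delta protocadherins accounted for 5 of the rises among 7 tested. PCDH10 was at 33.6 and 33.3 CPM in WT and 67.7 and 71.1 CPM in sgKDM6A (log2 change 1.05 with SE 0.11, adjusted p = 3.65e-05), and PCDH17 had 3 and 3 counts in WT against 116 and 131 in sgKDM6A (log2 change 4.88 with SE 0.49, adjusted p = 3.05e-05). Both sgKDM6A libraries lay above all others in these 2 genes. Of 9 FAT, DCHS and CELSR genes 3 fell and 1 rose. CDH23, of the hair-cell tip link, went from 42.3 and 43.9 to 14 and 13.3 CPM (log2 change -1.66 with SE 0.14, adjusted p = 4.05e-06), and DCHS1, the ligand of FAT4, from 15.8 and 17 to 3.25 and 4.18 CPM (log2 change -2.14 with SE 0.20, adjusted p = 9.8e-06). Of 18 immunoglobulin-type adhesion genes 2 rose and 4 fell (1 stable rise, 2 stable falls, median -0.17). The share of them called was 33.3%, beside 27.2% of all genes tested. NCAM1 rose from 8.14 and 6.11 to 19.9 and 22.8 CPM (log2 change 1.57 with SE 0.19, adjusted p = 8.55e-05).

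Voltage-gated channels carry the currents of excitable cells. Of 23 sodium and calcium channel genes 9 fell and 3 rose, and of 22 potassium channel genes 5 fell and 4 rose (3 stable rises, 8 stable falls, median -0.24, all channels together). SCN9A, a sodium channel of pain-sensing neurons, had 1 and 2 counts in WT against 49 and 73 in sgKDM6A, a ratio of 30.3-fold (95% counting interval 10.1 to 149). KCNH3 fell from 23.9 and 26.5 to 10.3 and 8.65 CPM (log2 change -1.41 with SE 0.15, adjusted p = 2.87e-05). Of 25 neurotransmitter receptor genes 1 rose and 3 fell (0 stable rises, 2 stable falls, median -0.32), so 16% were called beside 27.2% of all genes. CHRNA4, a nicotinic receptor subunit, fell by 1.75 (SE 0.23). Among 11 tested neural markers 2 rose and 3 fell (1 stable rise, 3 stable falls, median 0.38), and MAP2 of dendrites rose (3.33 ± 0.41, log2 change ± SE) while ENO2 (-1.01 ± 0.10) and UCHL1 (-0.84 ± 0.10) fell. The median of these markers was thus above 0 although their summed level, given above, was lower in sgKDM6A, and their part in the other neural gene groups was not tested. Of 20 peptide hormone and granule genes 2 rose and 6 fell (1 stable rise, 2 stable falls, median -0.04), and ADM2, a peptide of the calcitonin family, had 187 and 149 counts in WT against 1 and 2 in sgKDM6A, a ratio of 151-fold (95% counting interval 51.1 to 734).

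Receptor tyrosine kinases pass growth factor signals into the cell. Of 25 tested, 12 fell and 3 rose (5 and 2 stable, median log2 change -0.47). DDR2, which is activated by collagen, was at 69.8 and 71.1 CPM in WT and 23.8 and 26 CPM in sgKDM6A (log2 change -1.50 with SE 0.11, adjusted p = 8.35e-07). PTK7, a WNT co-receptor, fell from 240.1 and 262 to 145 and 166 CPM (log2 change -0.69 with SE 0.10, adjusted p = 0.000326), and AXL, the receptor of GAS6, had 38 and 28 counts in WT against 11 and 12 in sgKDM6A (log2 change -1.95 with SE 0.39, adjusted p = 0.00264). Among FGF receptors and their cofactors 5 of 9 fell and 0 rose, and FGFR2 fell from 47.3 and 46.4 to 15.7 and 18.4 CPM (log2 change -1.46 with SE 0.12, adjusted p = 4.89e-06). FGFR2 lies in a stretch of chromosome 10 in which many genes fell. Of 12 FGF ligands 2 rose and 1 fell. Over all 21 members of FGF signalling there were 2 stable rises, 5 stable falls, median -0.01. Of 18 genes of the growth hormone and IGF axis 3 rose, GHR among them, and 6 fell (1 stable rise, 1 stable fall, median -0.04).

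WNT ligands act through Frizzled receptors, and ROR2 is a receptor for their non-canonical signal. ROR2 was at 34.2 and 39.1 CPM in WT and 4.68 and 5.36 CPM in sgKDM6A (log2 change -2.86 with SE 0.15, adjusted p = 7.32e-08), at 35.9 and 32.7 CPM in sgKDM5C and at 27.3 and 30.9 CPM in sgKMT2B. RNF43, a ubiquitin ligase that removes Frizzled from the surface and is itself a WNT target, fell from 8.22 and 7.86 to 0.912 and 0.75 CPM (log2 change -3.27 with SE 0.27, adjusted p = 4.62e-06). Both genes lay lower in sgKDM6A than in any other library, and ROR2 did so within a stretch of chromosome 9 in which many genes rose. Of 22 WNT antagonists and targets 8 fell and 0 rose, of 12 ligands 4 fell and 1 rose, and of 18 receptors 5 fell and 6 rose. Over all 52 members there were 1 stable rise, 6 stable falls, median -0.08. FZD8 rose from 9.38 and 7.47 to 22 and 21.3 CPM (log2 change 1.35 with SE 0.19, adjusted p = 0.000246).

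In the TGF-beta superfamily 20 of 63 members fell and 11 rose (5 stable rises, 13 stable falls, median -0.22). By role, 8 of 23 ligands fell, among them the inhibin and activin chains INHBE (-2.82 ± 0.32, log2 change ± SE) and INHBB (-1.74 ± 0.20). INHBE was at 9.91 and 13.9 CPM in WT and 2.22 and 1.14 CPM in sgKDM6A, below sgKDM5C (22.8 and 13.7 CPM) and sgKMT2B (23.3 and 20.1 CPM). Of 19 receptors and SMADs 4 rose and 3 fell. FSTL1, a secreted modulator of BMP signals, fell from 145 and 182 to 85 and 82 CPM (log2 change -0.97 with SE 0.11, adjusted p = 5.65e-05), and it lies in the chromosome 3 stretch.

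Hedgehog proteins are received by PTCH1, which then releases the transducer SMO. Of 17 pathway genes 5 rose and 3 fell (3 stable rises, 1 stable fall, median -0.21). PTCH1 was at 25.7 and 26.8 CPM in WT and 50.4 and 47 CPM in sgKDM6A (log2 change 0.89 with SE 0.12, adjusted p = 0.000163), GAS1, a co-receptor, at 45.8 and 49.5 and 77.9 and 88.1 CPM (log2 change 0.80 with SE 0.12, adjusted p = 0.000332), and HHIP, which sequesters the ligand, at 0.868 and 1.82 and 5.75 and 4.86 CPM (log2 change 2.03 with SE 0.41, adjusted p = 0.00294). All 3 lay above WT and both other knockouts. PTCH1 and GAS1 lie in the same stretch of chromosome 9.

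Developmental transcription factors, many of which are Polycomb targets in stem cells, moved in both directions, with 19 of 142 rising and 29 falling, so 33.8% were called beside 27.2% of all genes (8 and 11 stable, median -0.06). MSX2, a homeobox factor of skull and limb, rose from 23.3 and 23.2 to 82.4 and 58.1 CPM (log2 change 1.59 with SE 0.19, adjusted p = 7.59e-05). GATA2, a factor of blood and urogenital development, fell from 87.7 and 87 to 43.6 and 42.9 CPM (log2 change -1.01 with SE 0.10, adjusted p = 1.29e-05), BARX2 from 7.52 and 9.81 to 2.62 and 2.5 CPM (log2 change -1.75 with SE 0.21, adjusted p = 6.69e-05) and DLX4 from 19.6 and 22.2 to 8.76 and 7.43 CPM (log2 change -1.37 with SE 0.16, adjusted p = 7.41e-05). GATA2 lies in the chromosome 3 stretch. Of 9 tested kidney markers 1 rose and 3 fell (0 stable rises, 1 stable fall, median -0.27), and EYA1, needed for the first kidney mesenchyme, was at 9.83 and 10.5 CPM in WT and 5.39 and 5.29 CPM in sgKDM6A (log2 change -0.93 with SE 0.19, adjusted p = 0.00268). Of 6 tested blood and endothelial markers 0 rose and 0 fell.

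Amino acid transporters are carriers of the SLC families, and 11 of 31 rose and SLC7A3 alone fell (6 and 1 stable, median log2 change 0.34). Of the rises 10 were among the 21 carriers of neutral and acidic amino acids. SLC38A7, a lysosomal glutamine exporter, was at 19.6 and 19.4 CPM in WT and 45.3 and 38 CPM in sgKDM6A (log2 change 1.09 with SE 0.16, adjusted p = 0.000371). SLC7A6 was at 29.3 and 26.3 and 49.1 and 41.4 CPM (log2 change 0.70 with SE 0.13, adjusted p = 0.00146), and SLC6A8, the creatine transporter, at 142 and 129.7 and 193 and 205 CPM (log2 change 0.55 with SE 0.09, adjusted p = 0.000674). The groups did not overlap in any of them.

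Among glucose transporters there were falls, with 4 of 10 falling and 0 rising (1 stable rise, 2 stable falls, median 0.01, both kinds of transporter together). SLC2A3 (GLUT3), the high-affinity neuronal carrier, fell from 16.9 and 19.3 to 0.555 and 0.607 CPM (log2 change -4.94 with SE 0.24, adjusted p = 2.6e-08), and SLC2A4 (GLUT4), the insulin-responsive carrier, from 11.2 and 11.9 to 3.09 and 3.25 CPM (log2 change -1.86 with SE 0.34, adjusted p = 0.00138). Among 13 monocarboxylate transporters 4 rose and 1 fell, and SLC16A7 (MCT2) had 7 and 8 counts in WT against 152 and 174 in sgKDM6A (log2 change 3.97 with SE 0.44, adjusted p = 4.2e-05). Of 21 glycolytic enzymes 4 fell and 1 rose (0 stable rises, 2 stable falls, median -0.07), so 23.8% were called beside 27.2% of all genes. PFKL, the liver phosphofructokinase on chromosome 21, fell from 379.9 and 334 to 227 and 237 CPM (log2 change -0.62 with SE 0.09, adjusted p = 0.000282).

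The proteasome degrades ubiquitin-tagged proteins, and 11 of 34 subunits and activators rose while 0 fell (5 stable, median 0.20). The share called was 32.4%, all upward, beside 27.2% of all genes called and 12.6% called upward. Leaving out WT replicate 1 gave 14 rises, and leaving out sgKDM6A replicate 1 gave 6. PSMD12, a lid subunit, was at 58.2 and 50.5 CPM in WT and 102 and 83.8 CPM in sgKDM6A (log2 change 0.77 with SE 0.13, adjusted p = 0.000941), and PSME3, the nuclear activator, at 293 and 259.7 and 426 and 411 CPM (log2 change 0.60 with SE 0.10, adjusted p = 0.000715). Of 75 nuclear genes of oxidative phosphorylation 8 rose and 3 fell, so 14.7% were called beside 27.2% of all genes (3 stable rises, 2 stable falls, median 0.11). The low share was lost without WT replicate 1, which gave 20 rises and 4 falls, while leaving out sgKDM6A replicate 1 gave 4 rises and 2 falls. UQCRC2, a core subunit of complex III, fell from 274 and 308 to 151 and 166 CPM (log2 change -0.88 with SE 0.09, adjusted p = 2.87e-05). In DNA replication 11 of 54 genes rose and 8 fell (2 stable rises, 2 stable falls, median 0.03), with MCM2 of the helicase falling from 509 and 481 to 304 and 271 CPM (log2 change -0.78 with SE 0.09, adjusted p = 4.75e-05) and POLE, the leading-strand polymerase, rising from 302 and 274 to 422 and 439 CPM (log2 change 0.58 with SE 0.08, adjusted p = 0.000305). MCM2 lies in the chromosome 3 stretch. The share of replication genes called was 35.2%, beside 27.2% of all genes tested.

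Lipoprotein receptors and the apolipoproteins they bind were lower in 12 of 23 tested members and higher in 1 (8 and 0 stable, median -0.53). APOE was at 98.5 and 99.1 CPM in WT and 32.8 and 28 CPM in sgKDM6A (log2 change -1.70 with SE 0.11, adjusted p = 3.2e-07), and the receptor LRP1, which takes up APOE, at 199 and 262 and 103 and 105 CPM (log2 change -1.15 with SE 0.13, adjusted p = 3.76e-05). APOE was higher than WT in sgKDM5C, at 185 and 186 CPM, and at 68.2 and 74.7 CPM in sgKMT2B. CLU, which encodes clusterin or APOJ, fell from 71.4 and 79.9 to 32.8 and 22.4 CPM (log2 change -1.45 with SE 0.15, adjusted p = 2.54e-05).

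Glycan-building enzymes moved both ways, with 13 of 75 rising and 18 falling (2 stable rises, 8 stable falls, median -0.04). MGAT3, which adds the bisecting N-acetylglucosamine, fell from 49.4 and 60.3 to 21.6 and 21.1 CPM (log2 change -1.36 with SE 0.14, adjusted p = 1.91e-05), and B3GALT1, a galactosyltransferase, rose from 1 and 4 to 127 and 151 counts (log2 change 5.28 with SE 0.63, adjusted p = 6.66e-05). In detoxification 14 of 52 genes fell and 5 rose (1 stable rise, 6 stable falls, median -0.14). The share of them called was 36.5%, beside 27.2% of all genes tested. The glutathione transferases GSTM3 and GSTP1 fell by 1.00 (SE 0.10) and 0.52 (SE 0.08) on the log2 scale. ALDH1A1, which makes retinoic acid, had 50 and 25 counts in WT against 0 and 1 in sgKDM6A, a ratio of 101-fold (95% counting interval 17.5 to 4034). It lies in the chromosome 9 stretch described below, in which 16 of 272 genes fell. The family of GSTM genes is similar in sequence, so its counts are uncertain. Of 22 zinc transporters and metallothioneins 5 rose and 4 fell (2 stable rises, 1 stable fall, median 0.11).

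Cytokines and NF-kB genes carry immune signals. Of 21 cytokines and chemokines 8 fell and 2 rose, and of 13 NF-kB genes 3 fell and 2 rose (0 stable rises, 5 stable falls, median -0.32, both kinds together). CXCL16 fell from 18.5 and 17.7 to 7.77 and 7.93 CPM (log2 change -1.21 with SE 0.15, adjusted p = 9.39e-05). IL11, a cytokine of the IL6 family, had 39 and 28 counts in WT against 5 and 1 in sgKDM6A (log2 change -3.85 with SE 0.73, adjusted p = 0.00201), and it was also low in sgKDM5C, with 3 and 9 counts. In antigen presentation 3 of 16 genes rose and 3 fell (0 stable rises, 2 stable falls, median -0.13), and HLA-B was at 211 and 240.0 CPM in WT and 125 and 126 CPM in sgKDM6A (log2 change -0.85 with SE 0.10, adjusted p = 4.61e-05). HLA class I genes are near-identical in part, so their counts are uncertain. Of 42 apoptosis regulators 4 rose and 8 fell (1 stable rise, 3 stable falls, median 0.11), with the TWEAK receptor TNFRSF12A falling from 56.4 and 49.8 to 18.8 and 17.7 CPM (log2 change -1.55 with SE 0.15, adjusted p = 1.71e-05). Of 43 regulators of cAMP and G proteins 5 rose and 8 fell (2 stable rises, 3 stable falls, median -0.01), with ADCY5, an adenylyl cyclase, falling by 1.85 (SE 0.27). ADCY5 lies in the chromosome 3 stretch. The shares called were 28.6% of the apoptosis regulators and 30.2% of the cAMP and G protein regulators, beside 27.2% of all genes tested.

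Of 16 imprinted genes 1 rose and 3 fell (1 stable rise, 1 stable fall, median -0.20), and ZDBF2 rose from 22.1 and 20.5 to 37.2 and 40.2 CPM (log2 change 0.86 with SE 0.13, adjusted p = 0.00033). ZDBF2 was also at 38.9 and 42.3 CPM in sgKDM5C and 36.7 and 32.4 CPM in sgKMT2B. In the BEX, TCEAL and MAGE families, clusters of X-linked genes, 2 of 21 rose and 4 fell (0 stable rises, 1 stable fall, median -0.07). The shares called, 25% of the imprinted genes and 28.6% of these families, were near the 27.2% of all genes tested.

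Changes were not spread evenly along the genome. On chromosome 9, 31.2% of 728 tested genes rose and 10.6% fell (median log2 change 0.27), and on chromosome 18, 26.4% of 242 rose and 5.79% fell (0.23). Chromosome 21 was the opposite, with 2 of 193 genes rising and 50 falling (25.9%, median -0.17), and on chromosome 3, 22% of 959 genes fell and 10.6% rose (-0.11). The medians of the other chromosomes lay between -0.12 and 0.12. Over the whole set of genes 12.6% rose and 14.6% fell.

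In bins of 15 neighbouring genes with at least 5 CPM in WT, 5 stretches of at least 4 consecutive bins had medians of 0.25 or more in size on the same side. These cut-offs were chosen after the values were seen. The stretch on chromosome 3, ending at MLF1 (158.6 Mb on GRCh38), had a median of -0.48, with 124 of 304 tested genes falling and 6 rising. The stretches on chromosome 9 (ending at RABEPK, 125.2 Mb) and chromosome 18 (B4GALT6 to PARD6G, 31.6 to 80.2 Mb) both had medians of 0.41, with 110 of 272 and 56 of 135 genes rising and 16 and 5 falling. Against sgKDM5C and sgKMT2B, the medians were -0.53 and -0.53 for the chromosome 3 stretch, 0.43 and 0.44 for that of chromosome 9 and 0.41 and 0.43 for that of chromosome 18. These 3 displacements were thus of similar size whichever other group served as reference.

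The stretch on chromosome 10, from VTI1A to MTG1 (112.4 to 133.4 Mb), had a median of -0.38 against WT and -0.41 against sgKDM5C, but -0.12 against sgKMT2B. That on chromosome 17, from POLR2A to SLC47A1 (7.5 to 19.6 Mb), which holds KDM6B, had -0.31 against WT and -0.12 and -0.18 against the other knockouts. Together the 5 stretches held 969 tested genes, of which 420 were called, 107 of them by at least 2-fold, and 108 set sgKDM6A apart from all groups. The other 4339 called genes lay elsewhere, which includes displaced bins that missed these cut-offs. Examples are chromosome 21, with 50 of 193 genes falling, and most bins of chromosome 9 beyond its stretch. Neighbouring bins of chromosome 1 from AHCYL1 to TTF2 had medians of -0.41, -0.36 and -0.43 against WT. Whether the copy number of these segments differs between the lines was not tested.

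**Figure D4:**
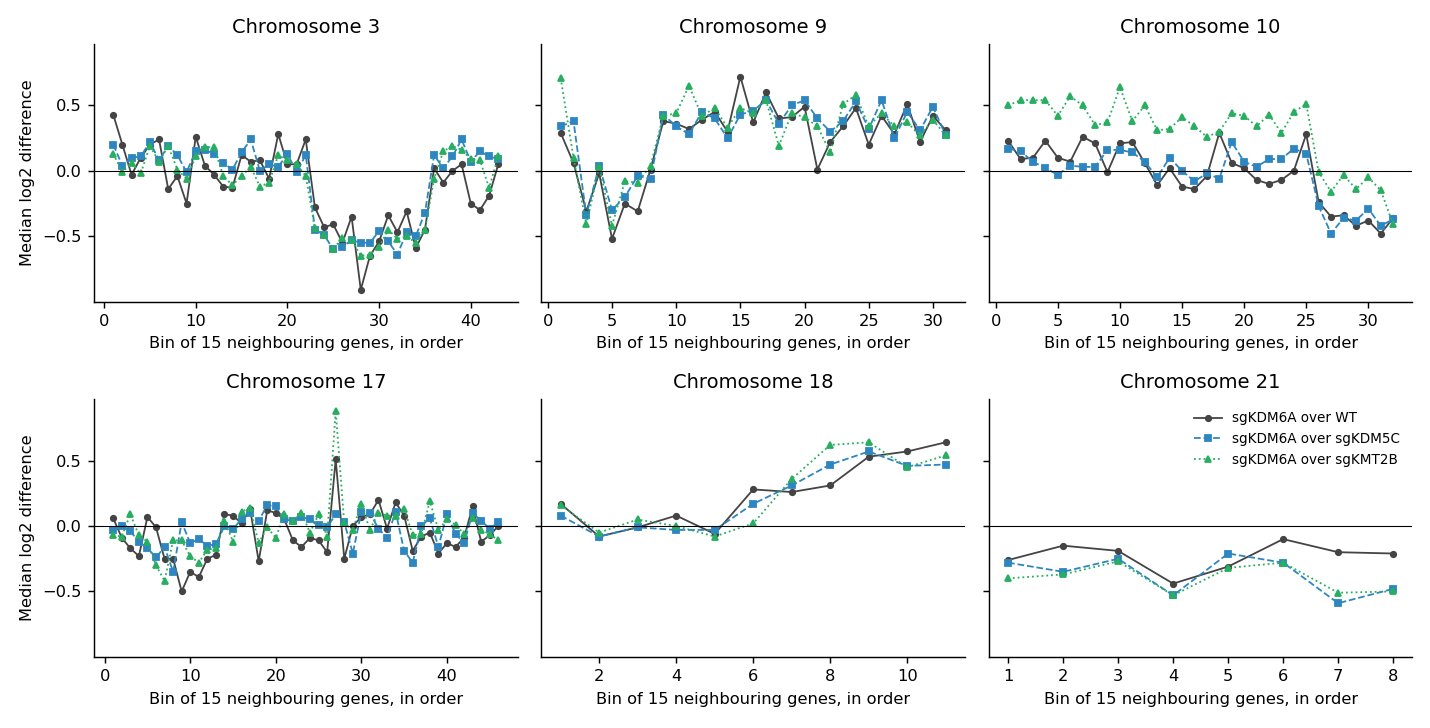
Median log2 difference of sgKDM6A over WT (black), sgKDM5C (blue) and sgKMT2B (green) in bins of 15 neighbouring genes, in order along 6 chromosomes. The long arm of chromosome 3 holds a block near -0.5, later bins of chromosomes 9 and 18 lie near 0.4, and chromosome 21 lies below 0 throughout, in each case against all 3 groups.

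Genes that escape X inactivation are expressed from both X chromosomes in female cells, and KDM6A is one of them. Of 23 tested, 14 fell and 0 rose (60.9% called, 11 stable, median log2 change -0.65). The falls were on the short arm: of 18 escape genes from the tip of the X to KDM6A 13 fell (median -0.71), and of 5 beyond it 1 fell (median -0.10), namely KDM5C. KDM5C fell by 0.25 (SE 0.08, adjusted p = 0.0359), a call that was lost without WT replicate 2 (adjusted p = 0.114), sgKDM6A replicate 1 (0.192) and sgKDM6A replicate 2 (0.127). USP9X, a deubiquitinase, and DDX3X, an RNA helicase, are the neighbours of KDM6A named here after their values were seen. USP9X fell by 0.69 (SE 0.11) and DDX3X by 0.73 (SE 0.11) on the log2 scale, beside RBBP7, PUDP and STS, given above. Against sgKDM5C and sgKMT2B the medians of the 18 genes were -0.45 and -0.54. Other X genes with at least 5 CPM had a median of -0.16 before KDM6A, with 18 of 60 falling and 4 rising, and of -0.01 beyond it, with 59 of 304 falling and 40 rising.

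**Figure D5:**
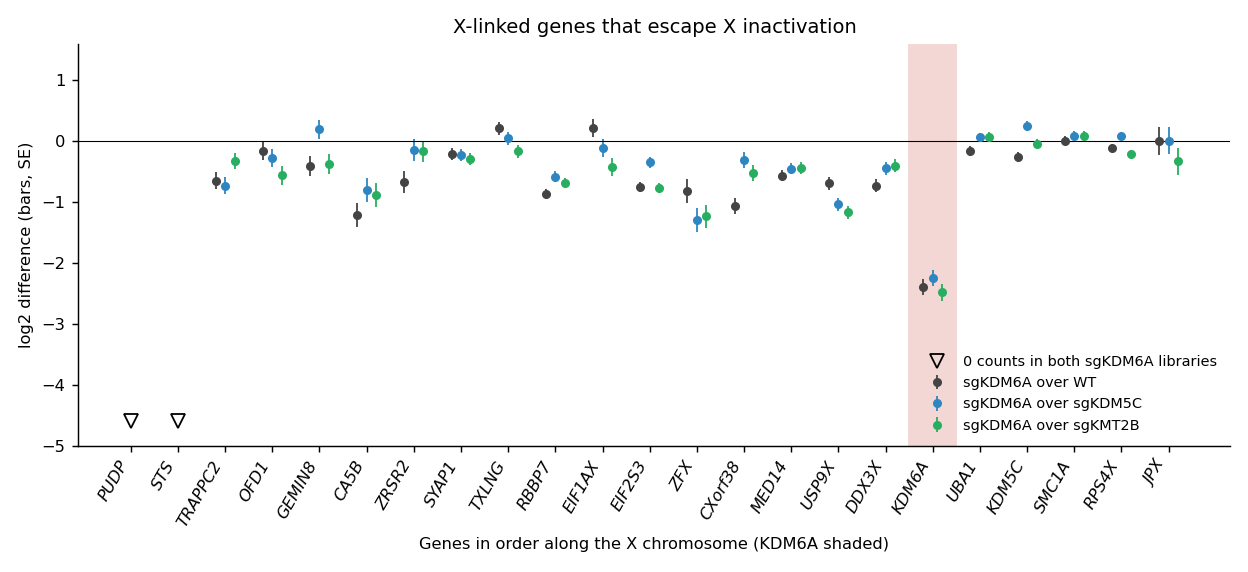
Log2 difference of sgKDM6A over WT, sgKDM5C and sgKMT2B (points, with SE bars) for 23 X-linked genes that escape X inactivation, in order along the chromosome, with KDM6A shaded. Triangles mark PUDP and STS, which had 0 counts in both sgKDM6A libraries and are drawn at a fixed height. Most genes left of KDM6A lie below 0, and those right of it lie near 0.

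Neighbouring genes were also called together over shorter distances. There were 56 runs of at least 4 adjacent tested genes all called in one direction, 28 upward and 28 downward, and 71 when protein-coding genes alone were considered. Among protein-coding genes the longest run was downward, with 17 genes from RUVBL1 to PLXND1 on chromosome 3 (128064778 to 129606818, median log2 change -0.71), within the stretch described above. Among all genes tested the longest, 9 genes from PCDHA10 to PCDHB15 in the clustered protocadherins of chromosome 5 (140855883 to 141249365), was upward, but 2 of its 9 members were stable. PCDHB11 had 1 and 0 counts in WT against 28 and 39 in sgKDM6A, and it had 23 and 20 in sgKMT2B. The genes of this cluster are similar in sequence, so their counts are uncertain. Next came 8 genes falling from ACAD9 to H1-10 on chromosome 3 (128879596 to 129316277, 5 stable), within the stretch described above. COPG1, a coat protein of Golgi vesicles, was at 223 and 254 CPM in WT and 135 and 132 CPM in sgKDM6A (log2 change -0.84 with SE 0.09, adjusted p = 4.09e-05), and H1-10, a linker histone, at 326 and 321 and 163 and 156 CPM (log2 change -1.02 with SE 0.10, adjusted p = 1.12e-05). A run of 8 genes rose from MBD2 to WDR7 on chromosome 18 (54151601 to 57036606, 3 stable), where MBD2, a reader of methylated DNA, went from 19.6 and 19.3 to 36.8 and 36.4 CPM (log2 change 0.91 with SE 0.14, adjusted p = 0.000467) and TCF4, a bHLH factor of neural development, from 15.6 and 13.3 to 27 and 26.7 CPM (log2 change 0.89 with SE 0.15, adjusted p = 0.00082).

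Outside the 5 stretches, 6 genes rose in a row from SNAPC4 to C9orf163 near the end of chromosome 9 (136375577 to 136486067, 5 stable), where the bins of neighbours also lay above 0. SNAPC4, a subunit of the complex that starts small nuclear RNA genes, was at 37.7 and 39.5 CPM in WT and 95.1 and 86.7 CPM in sgKDM6A (log2 change 1.24 with SE 0.12, adjusted p = 1.28e-05), and SEC16A, which organises sites of export from the endoplasmic reticulum, at 147 and 154 and 279 and 269 CPM (log2 change 0.87 with SE 0.08, adjusted p = 1.54e-05). A run of 6 falling genes at the tip of chromosome 11 (278365 to 315272, 4 stable) holds IFITM2 and IFITM1. The bin of neighbours there, from BET1L to TMEM80, also lay below 0, with 9 of 15 genes falling and 0 rising. Its median was -0.41 against WT, -0.40 against sgKDM5C and -0.33 against sgKMT2B. Strand is not given for the counting, so genes that overlap on opposite strands within these runs cannot be told apart.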

How the data were processed

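Poly(A) RNA of HEK293T cells, 2 libraries in each of 4 groups, was sequenced as read pairs, per the labels' protocols. Per the submitters' processing notes, reads were aligned to GRCh38 (hg38) with STAR and counted with HTSeq 0.11.2. The authors deposited raw read counts per gene for 60617 gene identifiers. The sources used here do not give the annotation release or the strand setting. Gene symbols came from a table of gene names and coordinates from GENCODE v29, matched by identifier (60596 had a symbol). Groups followed the labels.

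Counts of all 8 libraries entered 1 edgeR 4.0.16 quasi-likelihood fit in R 4.3.3, with TMM factors, edgeR's filter on low counts by group, 1 coefficient per group (4 residual degrees of freedom) and Benjamini-Hochberg adjustment over the 17527 genes tested. Every adjusted p is from this fit, SE is the log2 change divided by the square root of F, and genes were called at 0.05. A gene set apart from the other groups had its largest p of 3 contrasts adjusted likewise. The script was tested on simulated counts. Levels are CPM.

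Total counts were 15868353 to 27591724, so 3 counts were worth 0.109 to 0.189 CPM before TMM factors. Intervals and floors cover counting error only. Replicates differed beyond counting noise (chi-square per degree of freedom 15.8 in WT and 9.4 in sgKDM6A).

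Named genes were KDM6A and its paralog, the 20 largest changes in each direction with at least 5 CPM in the higher group, the 10 largest in each direction with at least 100 CPM in both groups, the 10 most apart in each direction, up to 4 called members of each of 47 gene lists by adjusted p, and members of the 3 longest runs in each direction (265 genes). Some genes named by the rule are not reported here, and most of those whose call was lost in a fit without 1 library are not described. Members and lists were chosen with earlier results of these data known. Promoter sequences are RefSeq's on GRCh38.p14. Alternatives tried were DESeq2 1.42.0, other scalings and filters, thinned counts, the 4 libraries alone, a stricter threshold, a replicate block and leaving out each library.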

Additional observations from a re-analysis of the deposited data

How the results depend on the processing

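The fall of KDM6A in sgKDM6A against WT kept its call under every alternative run (log2 change -2.48 to -2.31). The number of genes changed was 4759, and 4665 with DESeq2, 4768 with RLE factors, 5068 without the filter on low counts, 4391 with counts thinned to 1 depth and 3990 with the WT and sgKDM6A libraries alone. It fell to 2510 at an adjusted p under 0.01, and lay between 2495 and 4711 when 1 library was left out, the lowest being without sgKDM6A replicate 1, where 2412 of the calls were shared. The number of genes set apart was 573, with 308 at an adjusted p under 0.01, 309 to 574 when 1 library was left out, 708 with DESeq2, 839 without the filter and 590 with upper-quartile factors. It has no value for the 4 libraries alone. With the replicate number as a block the counts were 5521 and 734. Deviations of same-numbered libraries correlated at -0.03 between WT and sgKDM6A, -0.1 and 0.02 between WT and sgKDM5C and sgKMT2B, and 0.31 to 0.48 among the knockouts (11249 genes). The numbers were thus not taken to pair all groups, although the knockouts deviated together, a hint from the data and not from the labels. Of the 264 genes named by the rule and tested, none changed direction in an alternative that gave it a value (246 had one at a mean of at least 1 CPM, 260 with thinned counts, 261 with the 4 libraries alone and 264 in each other). Calls were lost for 42 of them without sgKDM6A replicate 1, 30 without WT replicate 2, 27 without sgKDM6A replicate 2, 20 without WT replicate 1, 39 at the stricter threshold and at most 9 under each other alternative. Depth limits genes near 3 counts in a library. Bounds or counting intervals are given where a group had at most 3 counts over both libraries. Genes just above that floor, such as PCDH17, B3GALT1 and IL11, have log2 changes with SE only.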
